A study of Mus musculus with 8 samples.

Results

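DNA-RNA immunoprecipitation with sequencing (DRIP-seq) peaks were examined at the distal ends of mouse chromosomes, the ends that carry the telomere opposite the centromere. A peak belonged to the distal set when its midpoint lay in the last 2 Mb of an autosome in the mm10 assembly. Of the 344010 peaks in 4 peak lists, 5843 met this rule, in 35.6 Mb of assembled sequence over 19 chromosomes. GFP mock contributed 1462 of its 87613 peaks, GFP DOX 1125 of 60219, Cre mock 1602 of 91097 and Cre DOX 1654 of 105081. Wherever 4 values follow each other below, they stand in this order of lists. The rule used position only, so levels, widths and overlaps of the peaks were free to vary.

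The cells were mouse embryonic fibroblasts (MEFs) of 1 line, Rtel1F/F;WT RNH1-GFP. All 4 groups therefore carried floxed alleles of *Rtel1* together with wild-type RNaseH1 fused to GFP, expressed upon doxycycline. GFP adenovirus left *Rtel1* floxed (GFP cells) and Cre-GFP adenovirus was used to delete it (Cre cells). At 48 h after infection, doxycycline was added at 2 µg/ml (DOX) or withheld (mock), and cells were collected 48 h later. Each group had 1 DRIP library, made from 3 pooled immunoprecipitations, and no test between groups was made, since no group had a replicate. The 4 input libraries of the 8 samples were not analysed here. Read totals are not part of the lists, so depth is unknown, and intervals on shares cover counting error only.

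An R-loop forms when RNA anneals to its DNA template and pushes the second DNA strand aside, and the S9.6 antibody used here binds the RNA:DNA hybrid. Telomeres consist of tandem TTAGGG repeats. They are transcribed into the long non-coding RNA TERRA, which can form R-loops there, and their G-rich strand can fold into G-quadruplexes (G4s). RTEL1 is a helicase that unwinds telomeric loops and G4s, and RNaseH1 degrades the RNA of the hybrid. Mouse chromosomes have their centromere close to the low-coordinate end of the assembly. At the high-coordinate end the assembly breaks off into a gap of unknown bases, which stands in place of most of the telomere.

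The distal peak with the highest fold enrichment in each list lay beside the last assembled bases of chromosome 3. By score, a pair of regions on chromosome 9 that hold no telomere repeat ranked among the top 3 distal peaks of every list. The sequences below, from GRCm38.p6, plus strand, 5′ to 3′, show the middle 150 bases of the GFP mock peak in each of the 2, with runs of 3 or more G or C in capitals.

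chr9:123461674-123461823: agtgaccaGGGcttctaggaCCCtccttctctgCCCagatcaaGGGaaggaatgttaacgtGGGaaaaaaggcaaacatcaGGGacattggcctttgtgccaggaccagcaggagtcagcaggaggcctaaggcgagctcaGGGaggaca
chr9:124257004-124257153: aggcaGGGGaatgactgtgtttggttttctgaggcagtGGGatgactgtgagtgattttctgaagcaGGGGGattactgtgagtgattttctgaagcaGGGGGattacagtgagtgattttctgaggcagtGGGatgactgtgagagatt

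The second chromosome 9 stretch is itself repetitive, since 88.2% of its bases match the base 31 positions further on. The first chromosome 9 stretch had no such period, with a best match of 35.7% of bases at any shift tried.

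A peak lay in the last 2 kb of assembled sequence on 18 of 19 autosomes in GFP DOX, where chromosome 9 had none, and on 19 of 19 in each other list. The last 2 kb was chosen for this count after the lists had been seen. Of all 1201662 consecutive 2 kb blocks of the assembled autosomes, the background share overlapped by a peak was 7.26%, 4.99%, 7.75% and 9.69%. On 18 chromosomes the terminal peaks of all 4 lists formed a single region. With the best-scoring peak of each chromosome and list counted, there were 75 terminal peaks, and a second one on chromosome 6 in Cre DOX was left out. The peaks were strong as well as frequent: 72 of the 75 were in the top decile of scores of their list. A score is 10 times the −log10 q-value of the peak caller and ranks peaks within a list only. Median scores of terminal peaks were 176, 166, 235 and 255, where the medians over all autosomal peaks were 18, 17, 19 and 18. Median fold enrichment over the local background was 9.66, 9.73, 12.002 and 8.75, against 3.54, 3.52, 3.47 and 3.10 over all autosomal peaks.

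Chromosome 3 had the highest-scoring terminal peaks, which spanned 159938169 to 159939512 over the lists and overlapped untranslated exon sequence of *Wls*, a gene for a carrier of Wnt ligands. Its score was 739 in GFP mock and 747 in GFP DOX, and reached 972 in Cre mock and 1131 in Cre DOX. Fold enrichment there was 26.4, 27.8, 32.7 and 32.8 in the same order. The chromosome 10 region (130593842 to 130595099, intergenic) scored 516, 487, 765 and 655. The chromosome 14 region (124801125 to 124802265, intergenic) scored 514, 636, 601 and 422. These 3 regions stood at percentiles between 99.940 and 99.993 of the scores of their lists, and they belonged to the 5 regions with the best mean percentile among all 348 distal regions found in every list.

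**Figure D1:**
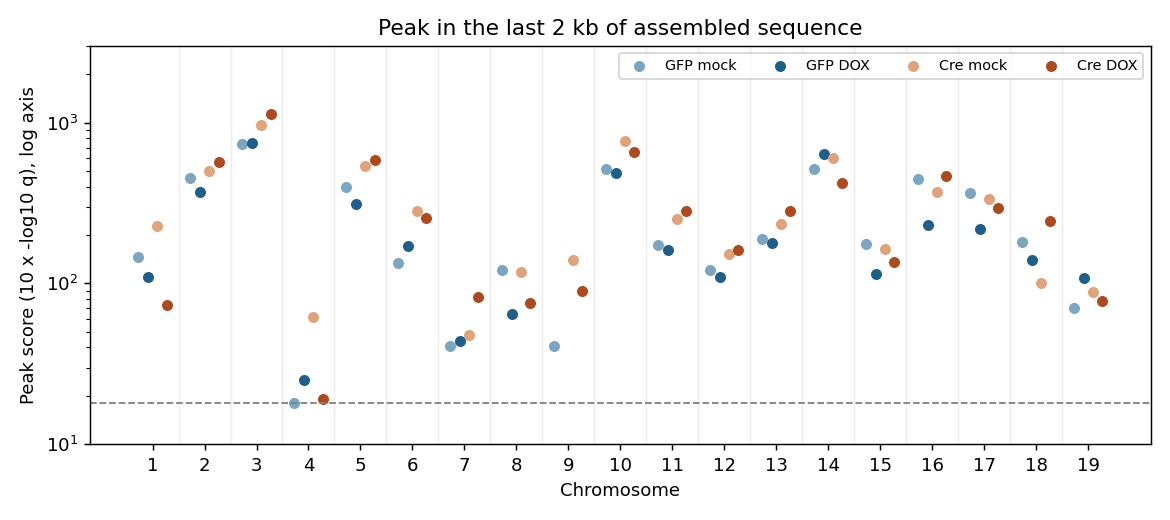
Scores of the peak in the last 2 kb of assembled sequence (log axis, 10 times −log10 q) for each autosome (horizontal axis) and list (colour), with 1 library per list. The dashed line marks 18, the median over lists of the median score of all autosomal peaks, and nearly all points lie above it, up to 1131 on chromosome 3 in Cre DOX.

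The terminal peak with the lowest fold enrichment in each list lay where the assembly holds no telomere repeat. The last 2 kb held a median of 44 TTAGGG or CCCTAA hexamers (range, 0 to 115), and 18 of 19 chromosomes had 4 or more, as did 1.11% of all 2 kb blocks. Chromosome 4 was the exception with 0 hexamers, and its terminal scores were 18, 25, 62 and 19. These were the lowest terminal scores except in Cre mock, where chromosome 7, with 89 hexamers in its last 2 kb, scored 48. All but that of Cre mock lay outside the top decile, which held for no other of the 75 terminal peaks counted. On chromosome 5 the terminal peak lay beside the repeats, with scores of 400, 314, 534 and 582 and with 0, 14, 0 and 2 hexamers inside the peak. On chromosome 14 the peaks held 109, 59, 110 and 114 hexamers. In 11 of the 75 terminal peaks the called interval ran past the last assembled base into the gap.

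Repeats at the end carried peaks more often than repeats elsewhere. Runs of 4 or more uninterrupted copies of TTAGGG or of its reverse complement, CCCTAA, were located on the assembled autosomes. The 30 runs in the last 2 kb lay on 18 chromosomes and all read TTAGGG on the plus strand. Of these, 28 (93.3%, 95% CI 77.9 to 99.2), 26 (86.7%, 69.3 to 96.2), 27 (90.0%, 73.5 to 97.9) and 29 (96.7%, 82.8 to 99.9) overlapped a peak of the respective list. Among the 311 runs elsewhere, of which 144 read TTAGGG and 167 CCCTAA and the longest was shorter than the longest terminal run, the numbers were 85 (27.3%; 22.5 to 32.6), 85 (27.3%), 95 (30.5%; 25.5 to 36.0) and 112 (36.0%; 30.7 to 41.6). Non-terminal 2 kb blocks with at least 20 hexamers gave similar shares, between 26.2% and 35.7% of 84 blocks. The shares were not matched for run length. Runs within 1 chromosome end share their peak, whereas the intervals treat runs as independent, so the intervals are too narrow.

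Peaks with 4 or more hexamers were a small part of the distal set, 19, 16, 24 and 40 peaks. They made up 1.30%, 1.42%, 1.498% and 2.42% of distal peaks, against 0.207%, 0.472%, 0.397% and 1.24% of all autosomal peaks. Of these, 15, 14, 15 and 17 lay in the last 2 kb, which was most of them in every list but Cre DOX, where 23 lay elsewhere. A predicted G4, from G4Hunter with a window of 25 bases and a score of at least 1.5, was present in 17 of 19, 16 of 18, 17 of 19 and 18 of 19 terminal peaks. Over all distal peaks the share with a predicted G4 was 27.4%, 22.6%, 27.7% and 26.5%, and over all autosomal peaks 25.6%, 21.9%, 26.2% and 23.6%. Terminal peaks were also wider, with medians of 943, 929, 877 and 890 bp against 311, 354, 369 and 520 bp for distal peaks, and the part of width in these shares was not tested.

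Many terminal peaks began where the last restriction fragment of the chromosome began. DNA had been cut with 5 enzymes (EcoRI, HindIII, BsrGI, SspI and XbaI) before immunoprecipitation, and telomere repeats contain none of their sites. The last site lay 135 to 4023 bp (median, 880) before the last assembled base. The start of a terminal peak was within 50 bp of a site in 15 of 19 peaks (78.9%), 12 of 18 (66.7%), 15 of 19 (78.9%) and 10 of 20 (50.0%), where Cre DOX had 2 terminal peaks on chromosome 6. Elsewhere in the distal windows this share was 9.22%, 11.7%, 10.9% and 15.9%, and 16.2% of all distal positions lay that close to a site. It was the chromosome's last site in 10, 8, 10 and 2 terminal peaks. The median terminal peak covered 82.5%, 84.1%, 89.9% and 94.3% of the assembled part of that last fragment.

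Reads from any telomere may align to any assembled repeat, whether such reads were kept is not stated in the sources used here, and the part of alignment in the scores was not tested. Use of the inputs as the control for peak calling is likewise not stated.

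**Figure D2:**
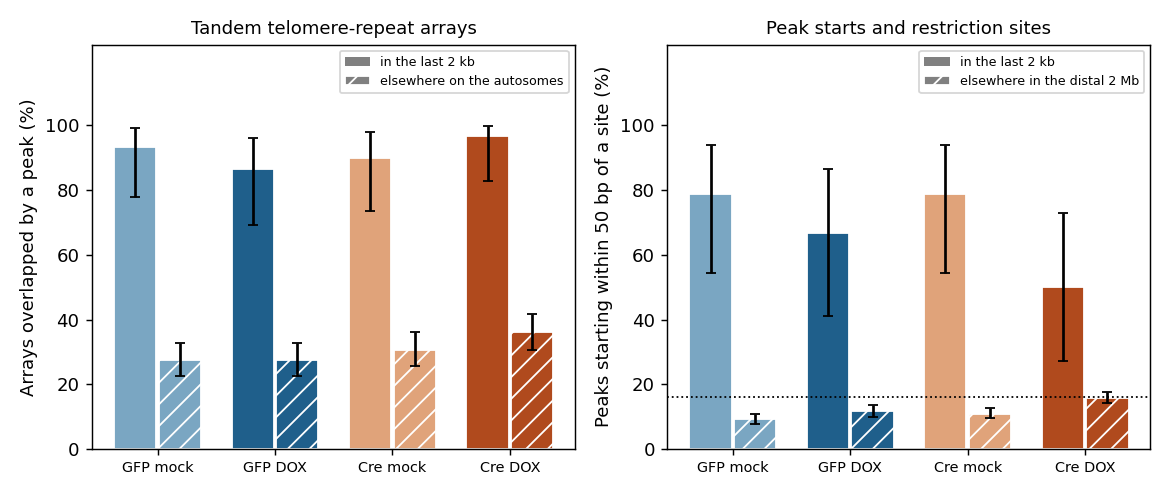
Left, share of tandem telomere-repeat runs overlapped by a peak, in the last 2 kb (plain bars) and elsewhere (hatched). Right, share of peaks that start within 50 bp of a site of the 5 enzymes, in the last 2 kb and elsewhere in the distal 2 Mb, with a dotted line at 16.2%, the share of positions that close to a site. Bars are the 4 lists, error bars are exact 95% intervals, and plain bars stand above hatched bars in each list.

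The pair of high-scoring regions on chromosome 9 lay well inside the window. The region at 123461297 to 123462306 overlapped coding exon sequence of *Lars2*, which encodes the mitochondrial leucyl-tRNA synthetase, 1032804 bp before the last assembled base. Its scores were 801, 961, 1355 and 1175, above those of the chromosome 3 end in each list. Its fold enrichment was moderate beside that of the chromosome 3 end, at 7.28, 8.49, 10.4 and 7.83. The region at 124256041 to 124258124 was intergenic, 77.3% repeat-masked and 12233 bp from the nearest annotated gene, Gm39469. It scored 721, 892, 894 and 1253, the last being the highest of all distal peaks in Cre DOX. Among the 30 distal regions with the best mean percentile in all 4 lists, 16 lay in the last 2 kb.

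Over the whole windows, distal peaks were denser than peaks in the middle of the same chromosomes, but the difference varied among chromosomes and did not pass the test. The middle window was the 2 Mb around the chromosome's midpoint. Distal density was 41.0, 31.6, 44.9 and 46.4 peaks per Mb. Middle density was 32.6, 23.1, 35.1 and 38.2, and density over all autosomes 33.5, 22.9, 35.3 and 39.3. The distal window was the denser on 15 of 19 chromosomes in Cre DOX and on 13 of 19 in each other list. Exact two-sided sign tests gave p = 0.0192 for Cre DOX and p = 0.167 for each other list. After Benjamini-Hochberg adjustment over 12 sign tests these were 0.231 and 0.334. The median ratio of distal to middle density over chromosomes was 1.33, 1.56, 1.09 and 1.24. Among top-decile peaks the ratio was 2.62 in GFP DOX and 1.65 in Cre DOX. The distal window was denser on 16 of 19 chromosomes in both, and these passed (exact sign test, adjusted p = 0.0266). The ratio was 2.11 in GFP mock and 1.93 in Cre mock, each with the distal window denser on 13 of 19 chromosomes. These did not pass (exact sign test, adjusted p = 0.2695). Adjustment was over the 12 sign tests of this setting alone, not across the alternatives tried. The top-decile peaks include those in the last 2 kb, found on 17 chromosomes in GFP DOX and 18 in Cre DOX. Their part in these ratios was not tested.

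The first assembled 2 Mb, on the centromere side, was denser than the distal window, with 45.6, 36.6, 51.6 and 58.1 peaks per Mb. Distal windows also held more genes. There were 490 protein-coding genes in the distal windows (13.7 per Mb) and 286 in the middle windows (7.53 per Mb), with GC contents of 42.4% and 41.6% and masked shares of 34.6% and 34.1%. Density was fitted linearly on GC content, masked share, gene number and chromosome over 1203 windows of 2 Mb, distal windows included. Density and gene number entered the fit as logarithms with a constant added. The distal windows stood at a median of 1.05, 1.27, 1.12 and 1.14 times their fitted density. They lay above the fit on 11, 14, 14 and 14 of 19 chromosomes. Set against the middle windows on this same scale, the median ratio was 0.995 in GFP mock and 0.994 in Cre mock, so its direction turned there, and 1.12 in GFP DOX and 1.09 in Cre DOX. The distal window was among the densest 25% of its own chromosome's windows on 6, 10, 8 and 9 chromosomes.

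Chromosome 15 had the highest distal density in GFP mock (110 per Mb), GFP DOX (71.9) and Cre mock (118), and chromosome 3 in Cre DOX (91.6). The lowest values were those of chromosome 12 in GFP mock (10.5 per Mb) and Cre mock (13.2) and of chromosome 16 in GFP DOX (9.47) and Cre DOX (14.7). The chromosome 15 window holds 53 protein-coding genes and the *Hoxc* cluster, whereas the chromosome 3 window holds 5. High density was thus present in both a gene-rich and a gene-poor window. The window of chromosome 10 held 82 protein-coding genes, with 47.4 peaks per Mb in GFP mock and 55.8 in Cre DOX.

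**Figure D3:**
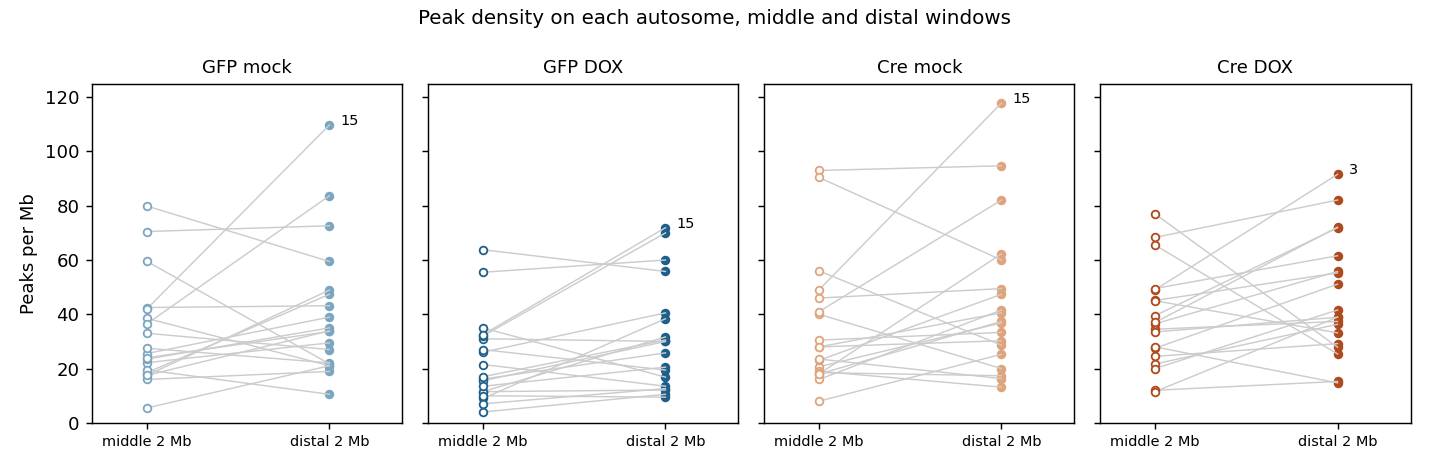
Peaks per Mb of assembled sequence in the middle (open circles) and distal (filled circles) 2 Mb window of each of 19 autosomes, joined by a line per chromosome, 1 panel per list. The number beside a point names the chromosome with the highest distal density, 110 on chromosome 15 in GFP mock, and lines run in both directions.

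Within the last 2 Mb, density was highest near the end of the chromosome. In bins of 200 kb counted from the chromosome end over all autosomes, GFP mock had 50.7 and 52.5 peaks per Mb in the 2 bins nearest to the end, 38.6 in the bin ending at 1 Mb and 31.1 in the next one. GFP DOX had 37.9 and 47.6, then 26.8 and 24.7 in the same bins. Cre mock had 50.7 and 58.0, then 40.0 and 33.9. Cre DOX had 70.8 and 74.5, then 41.9 and 36.3. Within this window all 4 lists were therefore densest between 200 and 400 kb from the end. The fall was not monotonic, with further rises at 1.4 to 1.6 Mb (46.8, 36.8, 48.9 and 46.8 peaks per Mb) and at 1.8 to 2 Mb (40.8, 31.1, 50.5 and 41.1). In Cre mock the last of these nearly equalled the bin at the end. Masked sequence fell from 45.7% in the last bin to 32.9% in the bin ending at 1 Mb. The first bin holds the terminal gaps and only 1.79 Mb of assembled sequence. No test was made on this profile.

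**Figure D4:**
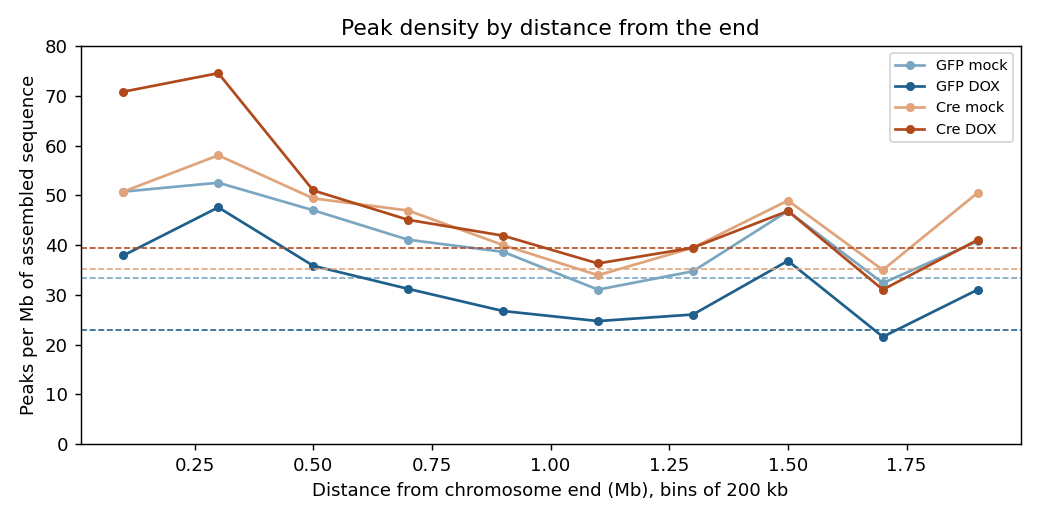
Peaks per Mb of assembled sequence (vertical axis) in bins of 200 kb by distance from the chromosome end in Mb (horizontal axis), summed over 19 autosomes, 1 line per list. Dashed lines give each list's density over all autosomes, and each list lies above its own line in the bins nearest to the end, up to 74.5 in Cre DOX.

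Distal peaks were also somewhat wider, again without passing the test. Median widths were 311, 354, 369 and 520 bp, against 283.5, 334.5, 322 and 479.5 bp in the middle windows. The distal median was the larger on 12, 13, 12 and 10 chromosomes (exact sign test, adjusted p = 0.334 to 1). With mean in place of median width, GFP DOX passed, at a ratio of 1.198 (exact sign test, adjusted p = 0.00874 within that setting alone). Distal peaks covered 1.82%, 1.85%, 2.61% and 4.10% of assembled sequence and middle peaks 1.24%, 1.15%, 1.75% and 2.96%. In the first assembled 2 Mb median widths were 322, 381, 368 and 562 bp, and peaks covered more sequence than at the distal end, 2.15%, 2.21%, 3.00% and 5.65%. The widest distal peaks were a GFP mock peak of 5039 bp over *Rarg*, which encodes retinoic acid receptor gamma (chromosome 15, 102245709 to 102250747), a GFP DOX peak of 5277 bp over *Arfgap1* (chromosome 2, 180979450 to 180984726) and a Cre mock peak of 11958 bp over *Fasn*, the fatty acid synthase gene (chromosome 11, 120813551 to 120825508). The widest in Cre DOX, 9186 bp, lay in an intron of Gm20752 on chromosome 3 (159200389 to 159209574), and 98.1% of it was repeat-masked.

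Sharing between lists was described next. Member peaks of the 4 lists formed 3116 regions, of which 348 (11.2%) held all 4 lists and 1993 (64.0%) held 1 list. Over all autosomes, 180639 regions formed in the same way gave a background of 8.49% and 67.2%. Cre DOX alone accounted for 667 distal regions (21.4%, background 24.3%), Cre mock alone for 606 (19.4%, background 18.5%), GFP mock alone for 492 (15.8%, background 17.4%) and GFP DOX alone for 228 (7.32%, background 6.99%). The 4 lists differ in length, and so do these shares. Regions in all 4 lists were intergenic in 58.0% of cases (95% CI, 52.7 to 63.3) and regions of 1 list in 42.8% (40.6 to 45.0). Promoters took nearly equal shares, 17.2% and 17.1%. These location shares describe distal regions only, and the shares over all autosomes are not given here. The share of a list's peaks that overlapped any of the other 3 lists was higher in the distal window on 12, 10, 9 and 14 of 19 chromosomes, and no list passed the exact sign test (adjusted p = 0.334 to 1). With equal numbers of peaks per list, Cre DOX passed (exact sign test, adjusted p = 0.00874 within that setting alone). Its distal share was higher on 17 of 19 chromosomes, with a median difference of 9.42 percentage points.

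Addition of doxycycline was meant to remove R-loops through RNaseH1. In GFP cells, 925 of 1462 distal mock peaks (63.3%; 95% CI, 60.7 to 65.7) overlapped no peak of GFP DOX, where the background over all autosomes was 69.9% and the middle windows gave 71.8%. In Cre cells, 812 of 1602 (50.7%; 48.2 to 53.2) overlapped no peak of Cre DOX, beside a background of 53.5% and 58.9% in the middle windows. Low shares were not particular to the distal end, since the first assembled 2 Mb gave 61.7% (59.4 to 64.0) in GFP cells and 41.4% (39.2 to 43.7) in Cre cells. Distal peaks were fewer with doxycycline in GFP cells, 0.769 times as many (95% CI, 0.711 to 0.832), and about as many in Cre cells, 1.03 times (0.963 to 1.11). Over all autosomes the ratios were 0.684 and 1.12. The direction was not stable, since lists cut to equal numbers of peaks gave distal ratios of 1.12 (GFP) and 0.920 (Cre), and covered length gave 1.01 and 1.57.

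Deletion of *Rtel1* was compared in the mock lists. Cre mock had 1.10 times as many distal peaks as GFP mock (95% CI, 1.02 to 1.18), and 1.05 times as many over all autosomes. Of the distal Cre mock peaks, 990 (61.8%; 59.4 to 64.2) were absent from GFP mock, with a background of 65.5%. In the other direction, 806 distal GFP mock peaks (55.1%; 52.5 to 57.7) had no counterpart in Cre mock, with a background of 61.7%. In the first assembled 2 Mb these shares were 61.5% and 53.3%. The comparisons share libraries, and with 1 library per group none of these values has a replicate error.

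**Figure D5:**
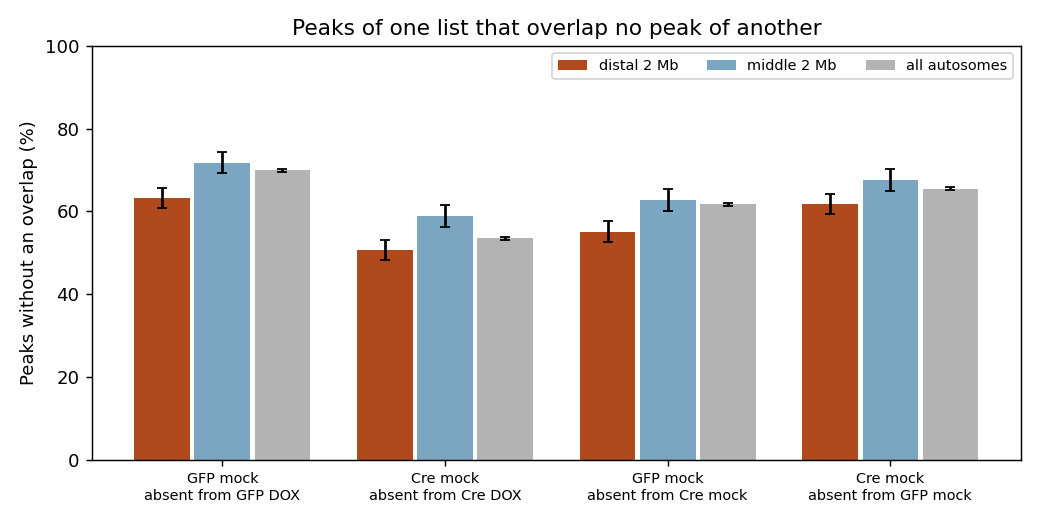
Share of peaks of the first list that overlap no peak of the second, for distal windows, middle windows and all autosomes, with exact 95% intervals that cover counting error only. The distal share is below both other plotted shares in each pair, for example 63.3% against 69.9% over all autosomes for GFP mock and GFP DOX, but the first assembled 2 Mb, which is not plotted, gave lower values still in each of the 4 plotted pairs (61.7% in that example).

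The highest-scoring region found in GFP mock alone lay on chromosome 4 at 156125529 to 156125646 in untranslated exon sequence of 9430015G10Rik, with a score of 77, and the next in an intron of *Itgbl1* on chromosome 14, with 76. The best 2 in Cre mock alone lay in an intron of *Prkcz*, the gene for an atypical protein kinase C (score 79), and at the promoter of *Caprin2* (71). In Cre DOX alone both lay on chromosome 12 in fully masked intergenic sequence (scores 79 and 45). In GFP DOX alone the best were 40, at 1706 bp from *Hoxc4*, and 38, near Gm9711.

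Promoters at the distal ends had peaks about as often as promoters in general. A promoter was the 1 kb to either side of any annotated start site. Of 490 protein-coding genes, 143 (29.2%) had a promoter peak in GFP mock, beside a background of 31.7% of 20807 autosomal genes. GFP DOX had 121 (24.7%, background 26.7%), Cre mock 180 (36.7%, background 37.8%) and Cre DOX 124 (25.3%, background 28.4%). In the middle windows the shares were 37.1%, 32.5%, 43.0% and 29.0% of 286 genes. All 4 lists had a promoter peak at 66 distal genes (13.5%), and none at 252 (51.4%), against 14.0% and 48.3% over all autosomes.

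The best-scoring promoters with a peak in all 4 lists were those of 3110070M22Rik and *Tmem267*, a divergent pair on chromosome 13 that shared 1 peak per list, with scores of 169, 169, 126 and 134. They were followed by *Samd11* on chromosome 4 (51, 69, 85 and 86), which lies 102459 bp before the last assembled base. *Eif4b*, which encodes a translation initiation factor, had scores of 41, 41, 62 and 60, and *Pcbp2*, an RNA-binding protein gene, 32, 21, 33 and 65, both on chromosome 15. A block of chromosome 11 supplied *Gps1*, a subunit of the COP9 signalosome (50, 31, 32 and 36), *Rfng*, a glycosyltransferase that modifies Notch (50, 31, 32 and 24), *Arhgdia* (27, 33, 58 and 39), and *Fasn* (39, 24, 39 and 37). *Rarg* had 24, 35, 49 and 37. *Gps1* and *Rfng* shared peaks in the first 3 lists. Each score is that of the best peak at any start site of the gene. The scores of a gene can thus come from different sites, some of them inside the gene. For *Fasn*, the peak lay at 120810606 to 120810746 in GFP mock and at 120820835 to 120825451 in GFP DOX. The same holds for the promoter scores that follow.

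Some promoters had a peak in 1 list alone. In Cre mock, *Zfp750*, which encodes a zinc finger factor of epidermal differentiation, had a promoter peak with a score of 115, *Caprin2* one of 71 and *Ccdc7a* one of 58. The *Zfp750* peak is not counted among regions of Cre mock alone, since a GFP mock peak (121518187 to 121518322 on chromosome 11, score 64) overlapped it just outside the promoter. GFP mock alone had B230307C23Rik (47), *Hoxc12* (38) and *Cdk11b* (29). GFP DOX alone had *Zgpat* (21), *Nanos1* (21) and *Lime1* (17). Cre DOX alone had *Slc17a9* (22), *Olfr777* (20) and *Brca2* (19). The peak counted for *Brca2*, a gene of homologous recombination, lay at 150565869 to 150566203 on chromosome 5, at a start site far inside the gene.

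Promoter peaks were also counted in blocks of neighbouring genes, to be read against the background shares over all autosomes of 31.7%, 26.7%, 37.8% and 28.4%. No test was made between blocks. Here and in the blocks below, the scores of a gene can come from different start sites. In the block of chromosome 11 from *Actg1* to *Metrnl*, 20, 24, 27 and 23 of 37 genes had one, and 16 had one in all 4 lists. In the block of chromosome 4 from *Agrn* to *Ski* the numbers were 12, 12, 16 and 12 of 32. *Gnb1*, which encodes a G-protein beta subunit, scored 29, 25, 32 and 20 there, *Nadk*, an NAD kinase gene, 15, 17, 39 and 15, and *Agrn*, the agrin gene, had no peak in GFP DOX and 32, 31 and 15 in the other lists. Of 20 genes of the *Hoxc* cluster and its neighbours, 12, 11, 13 and 6 had a promoter peak. The *Hoxc* genes encode homeobox factors of body patterning. *Hoxc8* scored 70, 29, 28 and 17, and *Hoxc9* 14, 24, 38 and 26. *Hoxc11* had no peak in GFP DOX and scored 29, 52 and 17 elsewhere, and *Calcoco1* had none in Cre DOX and scored 42, 19 and 63.

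Of the 11 genes of the *Ccnd1* and *Fgf* block on chromosome 7, 4, 3, 4 and 2 had a promoter peak. Growth factor genes were among them, with *Fgf3* at 32, 19, 32 and 19 and *Fgf4* at 23 in GFP mock and 18 in Cre mock alone. *Cttn*, which encodes the actin-binding cortactin, scored 27, 23, 32 and 19, and *Ano1* had a peak in GFP DOX alone (15). The 8 genes from *Brca2* to *Rfc3* on chromosome 5 had none in either GFP list and 2 in each Cre list, *Pds5b* with 16 in Cre mock and 19 in Cre DOX, *N4bp2l2* with 15 in Cre mock and *Brca2* in Cre DOX. *Nrp1*, a coreceptor for semaphorins and VEGF, had a score of 21 in Cre mock alone.

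The deleted gene itself lies in a distal window. *Rtel1* (chromosome 2, 181319739 to 181356616, plus strand) ends 656608 bp before the last assembled base. Neither GFP list had a promoter peak there. Cre mock had one over coding exon sequence at 181338882 to 181339318 (score 21) and Cre DOX one at 181349370 to 181349810 (score 10), both at start sites inside the gene and both outside the top decile. A peak list does not show whether the gene was deleted. Of its 31 neighbouring genes in the block, *Rtel1* included, 9, 8, 18 and 10 had a promoter peak. *Gmeb2*, a transcription factor gene upstream, had one in all 4 lists (18, 17, 33 and 21), as did *Chrna4*, a nicotinic receptor subunit gene (25, 17, 41 and 15), and *Arfgap1* (13, 22, 31 and 17). *Col20a1* had none in GFP mock and scored 20, 31 and 22 in the other lists. Cre mock had the most promoter peaks in this block, but it also had the most over all autosomes (37.8%).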

How the data were processed

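DRIP-seq of MEFs gave 8 samples, 4 of them immunoprecipitated libraries with a peak list. The authors pooled 3 immunoprecipitations per condition, aligned single-end reads to mm10 with BWA in nf-core/chipseq and called peaks per library with MACS2, and the lists are in broad-peak format although the command names narrow peaks. The deposited score is 10 times the −log10 q-value, which the authors' caller gives beside a −log10 p-value and a fold enrichment. None is normalised between libraries.

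Positions are counted from 1 in mm10 and sequence is from GRCm38.p6. Genes are from GENCODE M21, and promoters reach 1 kb to either side of a start site. Peaks were placed by midpoint. Density used assembled bases, and peaks overlapping by at least 1 bp were shared. Windows with fewer than 5 peaks were left out of width and sharing tests. Exact sign tests over 19 autosomes compared windows within a list (scipy 1.17.1, Benjamini-Hochberg over 12 tests, threshold 0.05). Each alternative was adjusted over its own 12 tests, not across alternatives. Shares have exact Clopper-Pearson 95% intervals. The procedure was tested on simulated data.

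Regions are unions of overlapping member peaks. Named were the 5 best by mean score percentile in all 4 lists, the 2 best of each list alone, the widest peak of each list, up to 10 genes with promoter peaks in all lists, 3 genes per list alone, *Rtel1*, and up to 4 genes of each of 7 gene blocks. The 5 regions nearest to an end all lie in the last 2 kb. Alternatives were stricter scores, equal peak numbers, windows of 1 and 5 Mb, other denominators and overlaps. Members and lists were chosen with earlier results of these data known. Sequences of the terminal regions are not reported here.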

Additional observations from a re-analysis of the deposited data

Results flagged for a closer look

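The number of distal peaks with to without doxycycline was 0.769 in GFP cells and 1.03 in Cre cells, on opposite sides of 1 with 1 library each. The difference between genotypes was not tested. Covered length gave 1.01 in GFP cells and 1.57 in Cre cells.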

How the results depend on the processing

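The distal to middle density ratio fell to 0.995 in GFP mock and 0.994 in Cre mock as observed over fitted density. Among top-decile peaks it was 2.62 in GFP DOX and 1.65 in Cre DOX. Width ratios turned to 0.977 (Cre DOX, top decile), 0.988 (GFP DOX, −log10 q-value of at least 2) and 0.988 (Cre DOX, without the last assembled 10 kb, an alternative chosen after seeing the data), and mean width gave 1.198 in GFP DOX. The median difference in shared peaks for Cre mock, −3.11 percentage points, became 9.09 (top decile), 2.69 (q-value), 4.17 (equal numbers), 10.1 (1 Mb windows) and 4.60 (reciprocal overlap of 50%). For GFP DOX, 1.99 became −0.444 (1 Mb), −2.33 (5 Mb) and −0.452 (rest of the chromosome), but also 25 (top decile, 7 chromosomes) and 6.57 (reciprocal overlap). For Cre DOX, 3.44 became 9.42 with equal numbers of peaks, which passed within that setting alone, and 22.1 (top decile) and 10.8 (q-value), which did not.

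The ratio of distal peaks with to without doxycycline in GFP cells was 0.640 (q-value), 1.12 (equal numbers), 0.709 (5 Mb) and 1.01 (covered length). In Cre cells it was 0.953 (top decile), 0.914 (q-value), 0.920 (equal numbers), 1.13 (1 Mb), 0.931 (5 Mb) and 1.57 (covered length). Cre to GFP without doxycycline was 1.28 (top decile), 1.18 (q-value) and 1.43 (covered length). The cause was not tested. Of the other values, 40 of 44 for density, 32 of 36 for width and 27 of 36 for shared peaks kept direction and call. The ratios had no test and so no call. Of their 18 alternatives, 5 changed little, 7 moved but stayed on the same side of 1, and 6 turned direction. No paired analysis was possible because the groups share 1 replicate number, with 1 library each. Depth is unknown, so the part of library size in these numbers was not tested.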
